A study of Mus musculus with 24 samples.

Results

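KL001, a small molecule that binds cryptochromes and slows their degradation, was compared with its solvent DMSO in mouse embryonic fibroblasts in which Cop1 had been knocked down and which had received Dexa. The comparison rests on 6 of the 24 mRNA sequencing libraries of the series, chosen by their labels alone, with 3 labelled siCop1, DMSO and Dexa and 3 labelled siCop1, KL001 and Dexa. All 6 libraries share the wild-type genotype, the siCop1 transfection and the Dexa exposure, so the solvent group is itself a knocked-down and Dexa-treated group and not an untreated one. The other 18 libraries cross siCTRL or siCop1, DMSO or KL001, and the absence or presence of Dexa in the same cells, again with 3 libraries a group. They supply 3 further KL001 comparisons of 3 against 3 libraries, in Dexa-treated siCTRL cells and in siCop1 and siCTRL cells that had no Dexa, and the 4 comparisons have no library in common. The title of the series concerns cryptochromes and the assembly of the Cop1 ligase, and the comparison addresses what KL001 does to the transcriptome when little Cop1 transcript is left. The libraries hold no measure of cryptochrome protein, so whether a change passes through stabilised cryptochromes was not tested. An siRNA lowers the transcript without removing the gene. Neither the dose and duration of KL001 and Dexa nor the full name behind the abbreviation Dexa was available for the present account. Nothing in the labels says that replicates were separate cultures, so every p-value below measures the spread between these libraries, which may be technical.

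Cryptochromes are the main repressors of the circadian clock. With period proteins they bind the activator pair of Clock and Arntl (also called Bmal1) on E-box sequences and shut off its targets, which include the cryptochrome and period genes themselves, the nuclear receptors Nr1d1 and Nr1d2 (REV-ERB alpha and beta), and the transcription factors Dbp, Tef and Hlf. Cop1, listed here under its older symbol Rfwd2, is the substrate receptor of a Cul4 ubiquitin ligase that marks transcription factors such as Jun and the ETS factors Etv1, Etv4 and Etv5 for degradation. Cryptochromes also bind the glucocorticoid receptor and restrain part of its target genes.

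Of 14772 genes tested, 807 differed between KL001 and DMSO, which is 5.46% of the genes tested. The test was edgeR's quasi-likelihood test, and a gene is called changed where its Benjamini-Hochberg adjusted p was below 0.05. KL001 raised 369 genes (2.5% of those tested) and lowered 438 (2.97%). The clock repressor Cry1 had the smallest p. It also fell the most among called genes with a mean of at least 1 CPM (gene counts scaled to library size by TMM) over the 6 libraries and no overlap between the groups. Nr1d1 rose the most among the same genes. Symbols of the Gm, Rik, -ps and clone forms were left out of these rankings of change. Most changes were small, since 728 of the 807 called genes changed by less than 1.5-fold and the median absolute change among the called genes was 0.22 on the log2 scale. At least 2-fold changes were found in 24 called genes, of which 3 rose and 21 fell. The median change over all tested genes was -0.000811 on the log2 scale.

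**Figure D1:**
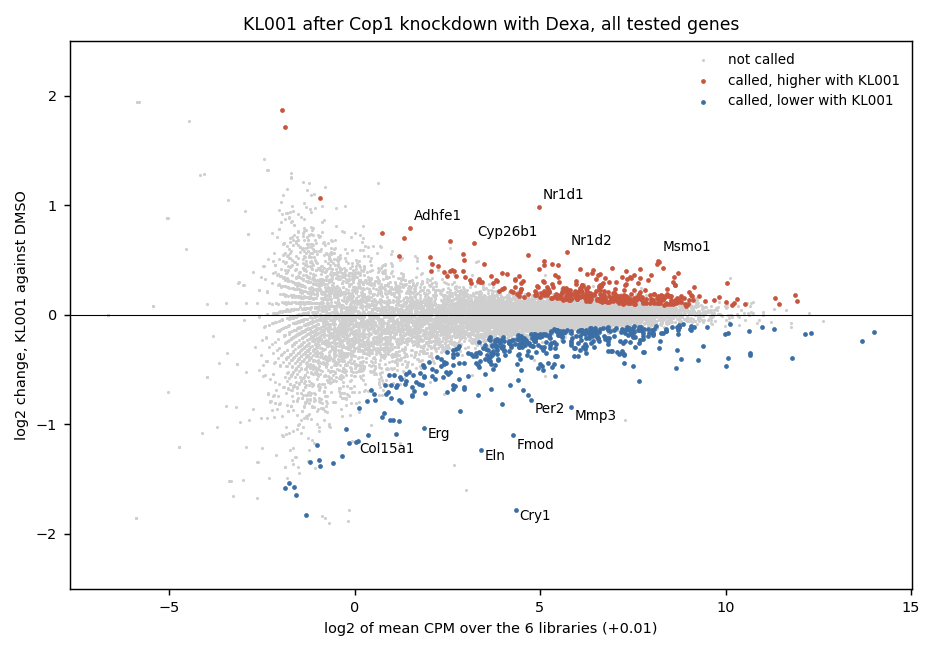
Change with KL001 against mean level for the tested genes in siCop1 fibroblasts with Dexa. The x axis is the log2 of the mean CPM over the 6 libraries with 0.01 added, the y axis is the log2 change of KL001 against DMSO, and red and blue points are the 369 genes called higher and the 438 called lower; 5 genes lie beyond the y axis. Cry1 and Fmod lie far below the other genes of their level, and Nr1d1 lies above them.

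All 3 libraries of one group lay above all 3 of the other in 803 of the 807 called genes (99.5%), against 25.1% of all genes tested. The calls were made on the same libraries, so this share is no separate evidence for them. The number of called genes depended on which libraries entered, since it was 509 without DMSO library 1, 502 without KL001 library 3 and between 539 and 611 without any 1 of the other 4. A fit on only the 2 groups compared called 1435 genes. A test against a change of at least 1.5-fold called 4 genes, Cry1, Fmod, Nr1d1 and Eln.

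The 6 libraries held between 21409988 and 25607133 counts assigned to genes. Rfwd2 stood at 4.41 to 5.11 CPM in the 6 libraries, against 24.99 to 28.6 CPM in the 6 siCTRL libraries with Dexa, and it did not differ between KL001 and DMSO (log2 change 0.09 ± 0.10 SE, adjusted p = 0.788). Summed fibroblast markers reached 37740 to 39278 CPM under DMSO and 33562 to 35071 under KL001. Marker sums here and below are CPM on library totals, without TMM scaling. Markers of heart muscle (at most 3.78 CPM, with Myl7 at 0) and skeletal muscle (at most 2.44 CPM, with Myh8, Myod1 and Myog at 0) were near the floor in both groups. Sums of macrophage, simple and airway epithelium, and neural and glial markers overlapped between the groups. They were at 10.4 to 19.0, 36.8 to 47.3 and 360 to 384 CPM over the 6 libraries. Squamous epithelium markers summed to 99.1 CPM in DMSO library 1, to 24.1 and 25.6 CPM in the other DMSO libraries and to 18.8 to 44.6 CPM under KL001, and none of the 8 tested members was called.

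Clock transcripts moved in both directions. Of 10 genes in a list of clock repressors, 5 fell and 2 rose, a called share of 70% against 5.46% of all genes, with a median change of -0.16 on the log2 scale. Both cryptochrome genes and Per2 fell, and both REV-ERB genes rose. The same 5.46% is the share to set beside the called share of every list below. Of 7 clock activators, 2 fell and none rose (28.6% called, median 0.02). The median over the 12 clock outputs was -0.03, with 2 lower and none higher (16.7% called).

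Cry1, one of the cryptochromes that KL001 stabilises as proteins, stood at 30.5, 32.5 and 31.4 CPM in the 3 DMSO libraries and at 8.59, 9.21 and 9.62 CPM in the 3 KL001 libraries. The groups were far apart compared with their spread, and the KL001 level was 0.29 times the DMSO level (log2 change -1.78 ± 0.06 SE, adjusted p = 4.4e-18). Cry2, the other cryptochrome, was at 47.9, 49.3 and 47.8 CPM under DMSO and at 35.4, 37.1 and 39.3 CPM under KL001. Its groups did not overlap either, and its change was smaller (-0.38 ± 0.05, adjusted p = 1.37e-06). Per2, which forms the repressor complex with the cryptochromes, was at 33.9, 34.2 and 34.7 CPM under DMSO and at 20.5, 18.2 and 21.4 CPM under KL001, a change of -0.78 ± 0.08 (adjusted p = 4.29e-08). Its close relatives did not pass the test. Per1 was at 185 to 197 CPM under DMSO and at 190 to 199 CPM under KL001, and its log2 change was 0.01 ± 0.03. Per3 overlapped between the groups in the same way, with a log2 change of -0.09 ± 0.07.

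**Figure D2:**
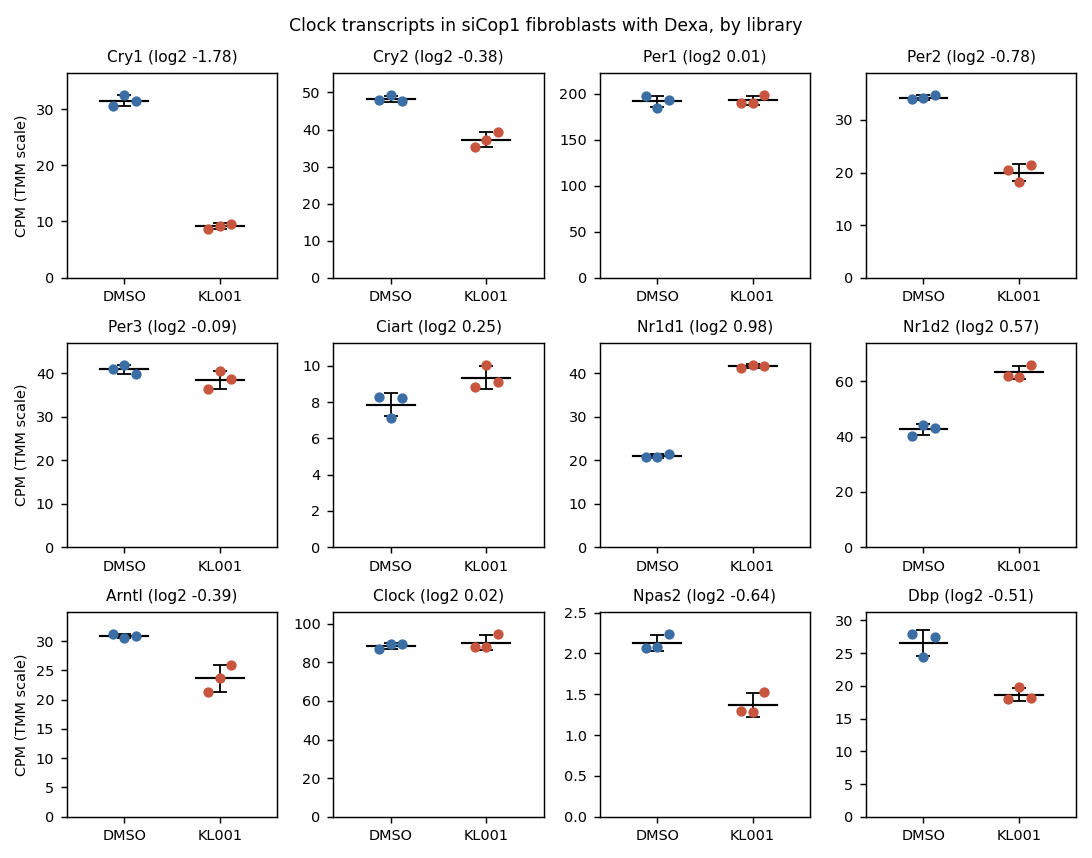
Levels of 12 clock transcripts in the 3 DMSO and 3 KL001 libraries of siCop1 fibroblasts with Dexa. Each point is a library, the y axis is CPM on the TMM scale and starts at 0, horizontal lines are group means and error bars are SDs with n = 3; Cry1, Cry2, Per2, Arntl, Npas2 and Dbp are lower and Nr1d1 and Nr1d2 higher in every KL001 library.

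Nr1d1, the nuclear receptor that represses Arntl, rose from 20.8, 20.9 and 21.5 CPM to 41.2, 42.0 and 41.8 CPM. The 3 libraries of each group lay within 1 CPM of each other, and the level under KL001 was 1.98 times that under DMSO (log2 change 0.98 ± 0.05, adjusted p = 3.27e-14). Nr1d2, its paralog, rose from 40.4, 44.3 and 43.3 CPM to 62.0, 61.7 and 66.1 CPM (0.57 ± 0.06, adjusted p = 1.23e-07). Bhlhe40, a basic helix-loop-helix repressor that also binds E-boxes, fell from 39.3, 39.5 and 38.3 CPM to 35.4, 32.4 and 30.7 CPM (-0.25 ± 0.05, adjusted p = 0.00104). Its relative Bhlhe41 was called lower as well (-0.23 ± 0.06, adjusted p = 0.0127), but not without DMSO library 3 (adjusted p = 0.0708) or without KL001 library 2 (adjusted p = 0.145). Ciart, a repressor of Clock and Arntl activity, did not overlap between the groups at 7.13 to 8.26 CPM against 8.84 to 10.1 CPM, and missed the threshold (adjusted p = 0.171).

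Among the activators, Arntl fell from 31.2, 30.6 and 30.9 CPM to 21.3, 23.7 and 26.0 CPM (-0.39 ± 0.06, adjusted p = 0.000194). Its KL001 libraries were spread more widely than its DMSO libraries and all lay below them. The partner genes of Arntl behaved differently from each other. Clock was at 86.9 to 89.5 CPM under DMSO and at 87.9 to 94.6 CPM under KL001, with a log2 change of 0.02 ± 0.09. Npas2, which can stand in for Clock, was at 2.06, 2.08 and 2.24 CPM under DMSO and at 1.29, 1.28 and 1.53 CPM under KL001 (-0.64 ± 0.18, adjusted p = 0.025). The call of Npas2 was lost without any 1 DMSO library (adjusted p of 0.0589, 0.0562 and 0.0963 for libraries 1, 2 and 3), without KL001 library 1 (0.0943) or 2 (0.115), with DESeq2 (0.0767) and with no filter on low counts (0.0537). Rora, a nuclear receptor that activates Arntl, and Arntl2 overlapped between the groups, with log2 changes of 0.09 ± 0.09 and 0.02 ± 0.08. Rorb was below 1 CPM in all 6 libraries and did not pass the test.

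Among the outputs, Dbp, the founding member of the PAR bZIP factors, fell from 27.9, 24.3 and 27.5 CPM to 17.99, 19.8 and 18.1 CPM (-0.51 ± 0.07, adjusted p = 1.85e-05). Tef, of the same family, fell from 256, 252 and 261 CPM to 220, 225 and 226 CPM (-0.20 ± 0.03, adjusted p = 3.9e-05). The related Hlf lay lower in each KL001 library, at 3.25 to 4.01 CPM against 4.61 to 4.90 CPM, and missed the threshold (-0.40 ± 0.16, adjusted p = 0.183). Nfil3, which binds the same D-box sites as a repressor, was at 90.5 to 93.1 CPM under DMSO and at 98.1 to 98.7 CPM under KL001, and also missed it (0.10 ± 0.03, adjusted p = 0.0636). The other 8 outputs, among them the kinase gene Wee1 and the NAD synthesis gene Nampt, were not called. Genes that degrade or modify the cryptochrome and period proteins gave 1 call among 9 (11.1%). In that list only the deubiquitinase gene Usp2 was called (-0.21 ± 0.06, adjusted p = 0.0411), and it lost the call when any 1 KL001 library was left out (adjusted p of 0.125, 0.0969 and 0.114 for libraries 1, 2 and 3). Usp2 also lost it without DMSO library 1 (0.283) or 2 (0.0693) and with DESeq2 (0.0712).

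Promoters are shown for 3 clock genes because each holds the same E-box, while Cry1 and Tef fell and Per1 did not pass the test. The stretches are the 250 bases upstream of an annotated start in RefSeq on GRCm38.p6, read 5′ to 3′ on the strand of the gene, and capitals mark the E-box CACGTG, which reads the same on both strands.
Cry1, chr10:85185055-85185304, minus strand: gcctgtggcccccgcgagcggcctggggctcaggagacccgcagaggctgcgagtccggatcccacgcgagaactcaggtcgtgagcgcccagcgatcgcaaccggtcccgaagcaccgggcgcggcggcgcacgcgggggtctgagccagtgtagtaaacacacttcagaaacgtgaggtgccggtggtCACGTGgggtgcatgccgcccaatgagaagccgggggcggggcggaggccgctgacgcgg
Tef, chr15:81802423-81802672, plus strand: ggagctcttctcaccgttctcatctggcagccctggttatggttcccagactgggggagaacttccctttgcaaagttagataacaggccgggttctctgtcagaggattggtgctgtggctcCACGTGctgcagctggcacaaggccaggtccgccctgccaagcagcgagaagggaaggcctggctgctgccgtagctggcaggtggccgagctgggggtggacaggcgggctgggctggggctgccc
Per1, chr11:69098699-69098948, plus strand: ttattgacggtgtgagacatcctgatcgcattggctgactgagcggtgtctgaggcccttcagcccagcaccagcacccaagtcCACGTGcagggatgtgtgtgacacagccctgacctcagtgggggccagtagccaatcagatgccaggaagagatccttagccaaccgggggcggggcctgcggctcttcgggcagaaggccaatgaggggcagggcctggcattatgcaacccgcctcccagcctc
The E-box begins 60 bases upstream of the start in Cry1, 127 in Tef and 166 in Per1. It was present in 4 of the 8 clock repressors with an entry in the table (50%), namely Cry1, Per1, Ciart and Bhlhe41, and in 9.82% of the 10958 tested genes with an entry. Called lower genes held it in 9.82% of cases and called higher genes in 13.1%, and 6.02% of all 32851 promoter windows held it. Neither Nr1d1 nor Nr1d2 held CACGTG in this window. The D-box TTANGTAA occurred in 1 of the 8 repressors, Per3, and in 1.69% of tested genes, and the response elements of REV-ERB and ROR, searched on both strands in a pair of spellings, occurred in none of the clock repressors, activators or outputs and in 0.164% and 0.146% of tested genes.

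Of 10 listed genes of the Cop1 ligase, 1 rose and 1 fell (20% called, against 5.46% of all genes, median 0.05). Trib3, a Tribbles pseudokinase of the family that couples Cop1 to substrates and also a stress-response gene, rose from 78.3, 80.5 and 81.8 CPM to 95.6, 102 and 104 CPM (0.33 ± 0.04, adjusted p = 8.66e-07). Its relative Trib2 was called lower (-0.16 ± 0.04, adjusted p = 0.0241). That call was lost without DMSO library 1 (adjusted p = 0.0948) or 2 (0.101), without KL001 library 2 (0.132) or 3 (0.0915) and after removal of a length and GC trend (0.141). Trib1, the cullins Cul4a and Cul4b, Rbx1, Det1 and Dda1 were not called, with log2 changes between -0.05 and 0.07. Ddb1, the adaptor that links Cop1 to the cullin, was at 1250 to 1274 CPM under DMSO and 1313 to 1344 CPM under KL001 without overlap (0.08 ± 0.03, adjusted p = 0.0931).

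Of 10 transcripts of described Cop1 substrates, 3 were called lower and none higher (30% called, median -0.09). Jun, an AP-1 subunit, fell from 104, 106 and 104 CPM to 93.01, 88.3 and 84.7 CPM (-0.24 ± 0.04, adjusted p = 6.94e-05). In the other 3 KL001 comparisons its log2 change was -0.03, -0.07 and 0.06, and the difference from the siCTRL effect was not called (-0.22 ± 0.05, adjusted p = 0.197). Etv4, an ETS factor, fell from 24.5, 22.02 and 24.5 CPM to 20.6, 18.5 and 18.6 CPM (-0.30 ± 0.06, adjusted p = 0.0013). Foxo1, a forkhead factor, was the last of them (-0.15 ± 0.04, adjusted p = 0.0319), and it lost the call without DMSO library 2 (0.124) or 3 (0.152) and without KL001 library 2 (0.17) or 3 (0.0965). Etv1, Etv5, Ets1 and Ets2 overlapped between the groups or missed the threshold, with log2 changes between -0.06 and 0.07.

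Among 19 tested genes of 20 listed as targets of ETS factors and AP-1, 6 fell and none rose (31.6% called, median -0.09). Mmp3, a secreted matrix protease, fell from 71.9, 75.8 and 70.1 CPM to 41.4, 40.8 and 39.3 CPM (-0.84 ± 0.08, adjusted p = 4.65e-07). Mmp9, another secreted protease, fell from 3.24, 2.85 and 2.67 CPM to 1.73, 1.36 and 1.02 CPM (-1.09 ± 0.23, adjusted p = 0.00323). The membrane-bound Mmp14 fell by 0.18 on the log2 scale (SE 0.03, adjusted p = 3.83e-05). For these 3 proteases the call held in every alternative run, and for the growth factor signalling genes Spry4, Hbegf and Dusp6 it did not. The test against a 1.5-fold change is not among the alternatives meant here and below. Spry4 lost its call without DMSO library 2 (adjusted p = 0.0699) and without KL001 library 2 (0.0952). Hbegf lost it without DMSO library 1 (0.163) or 3 (0.0562), without KL001 library 3 (0.194), with no filter (0.0991) and with DESeq2 (0.0901). Dusp6 lost it whichever of the 6 libraries was left out, with adjusted p from 0.0554 to 0.151.

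Cholesterol synthesis genes rose almost throughout. Of 19 listed genes of the sterol pathway, 18 rose and none fell (94.7% called), and the median change was 0.36 on the log2 scale. Msmo1, a methyl sterol oxidase late in the pathway, rose from 246, 249 and 249 CPM to 343, 352 and 345 CPM (0.48 ± 0.03, adjusted p = 3.98e-12). Cyp51, the lanosterol demethylase, rose from 263, 271 and 280 CPM to 355, 365 and 372 CPM (0.42 ± 0.03, adjusted p = 3.61e-11). Lss, which forms lanosterol, rose from 138, 133 and 140 CPM to 176, 182 and 185 CPM (0.40 ± 0.03, adjusted p = 8.18e-10). The groups did not overlap for any of the 3.

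Hmgcs1, at the entry of the pathway, rose from 354, 369 and 367 CPM to 465, 469 and 490 CPM (0.38 ± 0.04, adjusted p = 6.53e-08). Srebf2, whose product is the transcription factor of the pathway, rose by 0.18 ± 0.03 (adjusted p = 0.0012), and Insig1, which holds that factor back in the endoplasmic reticulum, by 0.42 ± 0.04 (adjusted p = 3.49e-09). Calls held in every alternative for 17 of the 18 genes. The exception was Idi1 (0.44 ± 0.13, adjusted p = 0.0319), which lost the call with DESeq2 (0.0614), without DMSO library 1 (0.15) or 3 (0.137) and without KL001 library 1 (0.0864) or 3 (0.226).

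The sterol genes rose under KL001 in the other settings too, with 18 called in Dexa-treated siCTRL cells, 18 in siCop1 without Dexa and 17 in siCTRL without Dexa, and medians of 0.29, 0.30 and 0.25 on the log2 scale. In 18 of the 19 genes the rise in siCop1 with Dexa exceeded that in siCTRL with Dexa. None of these differences was called one gene at a time, and the smallest adjusted p was 0.267, for Msmo1 (difference 0.15 ± 0.04).

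**Figure D3:**
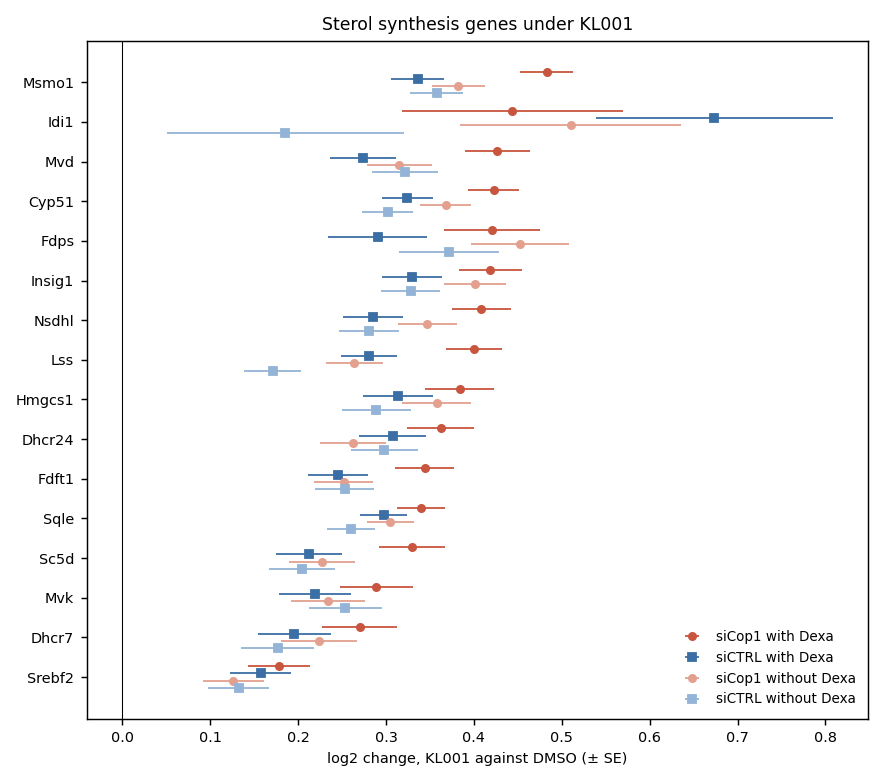
KL001 effect on 16 of the 19 sterol synthesis genes in the 4 settings. The x axis is the log2 change of KL001 against DMSO, error bars are standard errors, circles are siCop1 and squares siCTRL, and dark and light colours are with and without Dexa. Each of the 16 genes drawn is above 0 in all 4 settings.

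Of 14 listed genes of fatty acid synthesis and lipid storage, 7 rose, 7 were not called and none fell (50% called, median 0.18). Scd1, a stearoyl-CoA desaturase, rose from 357, 359 and 361 CPM to 441, 424 and 433 CPM (0.27 ± 0.04, adjusted p = 1.07e-05). Acly, which makes cytosolic acetyl-CoA, rose by 0.23 ± 0.03 (adjusted p = 1.33e-05), and Fasn, the fatty acid synthase, by 0.25 ± 0.05 (adjusted p = 0.000642).

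Stress genes downstream of the transcription factor Atf4, which responds to amino acid shortage and to misfolded protein, gave calls in 1 direction. Of 16 genes in a list of Atf4 and unfolded protein response genes, 10 rose and none fell (62.5% called, median 0.18). Psat1, an enzyme of serine synthesis, rose from 363, 366 and 364 CPM to 437, 434 and 446 CPM (0.27 ± 0.03, adjusted p = 1.91e-08). Asns, the asparagine synthetase, rose from 253, 246 and 250 CPM to 280, 284 and 288 CPM (0.19 ± 0.03, adjusted p = 8.44e-06). Atf4 itself rose from 482, 485 and 474 CPM to 547, 556 and 556 CPM (0.20 ± 0.03, adjusted p = 1.57e-05). Each of these had higher values in all 3 KL001 libraries.

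Trib3, described above with the Cop1 ligase, belongs to this list as well. Chac1, which degrades glutathione, rose by 0.26 ± 0.04 (adjusted p = 4.06e-05), and Atf3, a stress-induced repressor, rose from 12.4, 15.2 and 13.7 CPM to 17.1, 18 and 18.6 CPM (0.38 ± 0.07, adjusted p = 0.000571). Calls held in every alternative for 9 of the 10 genes, and Ddit3 lost its call without KL001 library 2 (adjusted p = 0.0567). The chaperone genes Hspa5, Hsp90b1 and Pdia4 of the same list were among the 6 not called. All 16 genes changed more upwards in siCop1 with Dexa than in siCTRL with Dexa, and none of those differences was called.

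Promoters of 3 called genes of this list and of Hmgcs1 are shown because they hold the element bound by the factor named for the pathway. They are given as above, 250 bases upstream of a RefSeq start on GRCm38.p6, 5′ to 3′ on the strand of the gene. Capitals mark the Atf4 element TGATGNAA on either strand in Asns, Atf3 and Chac1 and the sterol regulatory element TCACNCCAC in Hmgcs1.
Asns, chr6:7693210-7693459, minus strand: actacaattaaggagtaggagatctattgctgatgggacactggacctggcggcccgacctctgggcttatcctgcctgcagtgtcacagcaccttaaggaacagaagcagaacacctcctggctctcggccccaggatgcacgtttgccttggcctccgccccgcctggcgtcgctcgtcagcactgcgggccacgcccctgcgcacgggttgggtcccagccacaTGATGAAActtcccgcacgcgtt
Atf3, chr1:191183334-191183583, minus strand: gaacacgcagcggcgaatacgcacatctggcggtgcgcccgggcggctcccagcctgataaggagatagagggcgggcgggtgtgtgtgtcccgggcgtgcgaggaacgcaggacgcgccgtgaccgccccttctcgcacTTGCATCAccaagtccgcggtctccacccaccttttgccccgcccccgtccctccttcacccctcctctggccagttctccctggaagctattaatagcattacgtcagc
Chac1, chr2:119350992-119351241, plus strand: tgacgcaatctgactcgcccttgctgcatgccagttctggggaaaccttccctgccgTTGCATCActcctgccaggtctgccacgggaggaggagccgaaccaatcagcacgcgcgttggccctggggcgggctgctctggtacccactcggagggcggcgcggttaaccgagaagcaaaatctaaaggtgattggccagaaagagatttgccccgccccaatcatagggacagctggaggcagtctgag
Hmgcs1, chr13:119690101-119690350, plus strand: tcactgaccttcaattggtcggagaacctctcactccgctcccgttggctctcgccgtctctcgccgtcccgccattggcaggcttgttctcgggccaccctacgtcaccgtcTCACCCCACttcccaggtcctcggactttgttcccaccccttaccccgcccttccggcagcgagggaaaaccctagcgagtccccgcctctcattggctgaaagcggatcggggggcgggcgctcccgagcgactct
The Atf4 element begins 23 bases upstream of the start in Asns, 110 in Atf3 and 193 in Chac1. It was found in 4 of the 16 genes of the list (25%), the fourth being Herpud1, in 2.42% of tested genes with an entry, in 6.57% of called higher genes and in 0.92% of called lower genes, and in 3.45% of all promoter windows. The sterol element, 137 bases upstream in Hmgcs1, was found in 1 of 12 sterol genes with an entry (8.33%), in 1.2% of tested genes and in 1.05% of all windows. These are letter matches in a window and not bound sites.

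Several lists of extracellular matrix genes held more lower than higher calls. Of 18 fibrillar and network collagen genes, 11 fell and 1 rose (66.7% called, median -0.16). Of 18 elastic fibre genes, 8 fell and 1 rose (50% called, median -0.10), and of 13 tested ADAMTS proteases out of 16 listed, 5 fell and none rose (38.5% called, median -0.09), a count that was 3 without KL001 library 2. The summed fibroblast markers given above were lower in all 3 KL001 libraries, and 4 of those 10 genes were called lower and none higher (40% called), a count of 2 without DMSO library 1 or 3 and without KL001 library 2 or 3. That list shares Col1a1 and Col1a2 with the collagens. These 2 genes held 11243158 and 8412872 counts over the 24 libraries, and their log2 changes here were -0.16 and -0.24. In bulk RNA fewer cells of a type cannot be told apart from less RNA per cell. The part of the marker sum in the matrix counts was not tested.

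Eln, the elastin gene, fell from 15.1, 14.96 and 14.8 CPM to 6.21, 6.46 and 6.32 CPM. The SD was 0.14 CPM under DMSO and 0.13 CPM under KL001 (n = 3 each), and the level under KL001 was 0.42 times that under DMSO (log2 change -1.24 ± 0.11, adjusted p = 3.56e-09). Ltbp2, which binds fibrillin and the elastic fibre, fell from 128, 125 and 129 CPM to 101.5, 99.7 and 101.5 CPM (-0.34 ± 0.03, adjusted p = 3.67e-08). Mfap4, a microfibril-associated glycoprotein, fell from 2.55, 3.01 and 2.47 CPM to 1.64, 1.28 and 1.21 CPM (-0.96 ± 0.19, adjusted p = 0.00145). Fbln5 and Emilin1, both needed for fibre assembly, fell by 0.15 and 0.14 on the log2 scale. Of the 8 lower calls, 6 held in every alternative. Fbln2, the member called higher (0.10, adjusted p = 0.0292), lost the call without DMSO library 2 (0.195) or 3 (0.0808) and without KL001 library 1 (0.143), 2 (0.0789) or 3 (0.0527).

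Col3a1, a fibrillar collagen, fell from 4013, 4101 and 4043 CPM to 3161, 3017 and 3049 CPM (-0.40 ± 0.04, adjusted p = 1.65e-08). Col5a3, a minor fibrillar chain, fell from 80.4, 79.9 and 85.4 CPM to 68.7, 64.4 and 64.3 CPM (-0.32 ± 0.04, adjusted p = 4.82e-06). Col1a2 fell by 0.24 on the log2 scale (SE 0.02, adjusted p = 8.11e-08). Col15a1, a basement membrane collagen near 1 CPM, fell from 1.17, 1.504 and 1.53 CPM to 0.69, 0.58 and 0.60 CPM (-1.16 ± 0.26, adjusted p = 0.00366). Col18a1, from which endostatin is cut, was the member that rose (0.19 ± 0.04, adjusted p = 0.00166). Of the 11 lower calls, 7 held in every alternative, and Col18a1 kept its call as well.

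Fmod, fibromodulin, a small proteoglycan that binds collagen fibrils, fell from 25.7, 27.95 and 25.9 CPM to 12.5, 12.1 and 12.5 CPM (-1.10 ± 0.06, adjusted p = 3.27e-14). After Cry1 it had the smallest p among the genes that fell. Spon2, a secreted matrix protein, fell from 29.8, 28.8 and 26.8 CPM to 17.5, 17.1 and 18.4 CPM (-0.69 ± 0.05, adjusted p = 7.5e-10). Postn, periostin, fell from 1173, 1254 and 1197 CPM to 852, 877 and 889 CPM (-0.47 ± 0.05, adjusted p = 1.27e-07). The groups did not overlap for these 3 genes, which the rankings required of Fmod and Spon2.

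**Figure D4:**
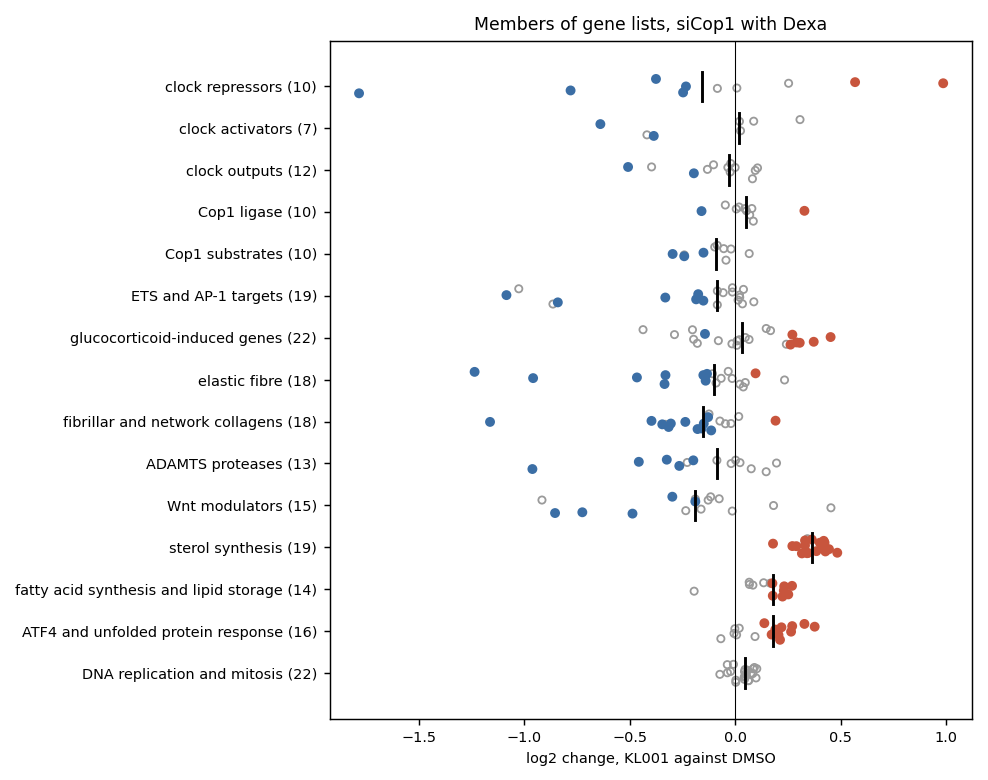
Changes of the tested members of 15 gene lists with KL001 in siCop1 fibroblasts with Dexa, with the number of tested members in brackets. Each circle is a gene, the x axis is the log2 change of KL001 against DMSO, filled red and blue circles are called higher and lower, open circles are not called and black bars are medians. Sterol synthesis genes sit above 0, collagens mostly below it, and clock repressors on both sides.

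Of 15 tested Wnt modulators out of 17 listed, 5 fell and none rose (33.3% called, median -0.19). That count was 2 without DMSO library 1, without DMSO library 2, without KL001 library 2 and without KL001 library 3. Sfrp2, a secreted antagonist of Wnt ligands, fell from 466, 457 and 486 CPM to 332, 341 and 332 CPM (-0.49 ± 0.03, adjusted p = 3.61e-11), and Dkk2, another antagonist, from 93.7, 96.8 and 97.9 CPM to 85.3, 76.3 and 72.8 CPM (-0.30 ± 0.05, adjusted p = 0.000227). Both calls held in every alternative. Outside that list, Rspo2, a secreted enhancer of Wnt signalling, fell from 241, 246 and 247 CPM to 195, 194 and 192 CPM (-0.34 ± 0.03, adjusted p = 3.44e-09). Fzd9, a Wnt receptor, fell from 1.498, 1.77 and 1.92 CPM to 0.95, 0.81 and 0.65 CPM (-1.10 ± 0.21, adjusted p = 0.00111).

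Genes induced by glucocorticoids did not move as a block. Of 22 listed, 6 rose and 1 fell (31.8% called), with a median change of 0.03. Angptl4, an inhibitor of lipoprotein lipase, rose from 30.1, 29.0 and 28.8 CPM to 39.2, 40.8 and 40.2 CPM (0.45 ± 0.05, adjusted p = 4.69e-07). Ddit4, an inhibitor of mTOR signalling, rose by 0.29 ± 0.04 (adjusted p = 3.82e-05), and Dusp1, a phosphatase of MAP kinases, by 0.27 ± 0.05 (adjusted p = 0.000296). Tsc22d3 (GILZ), a classical glucocorticoid target, was the one that fell, from 574, 570 and 564 CPM to 512, 523 and 511 CPM (-0.14 ± 0.03, adjusted p = 0.00114). In the other 3 KL001 comparisons the log2 change of Angptl4 was 0.50, 0.54 and 0.64, both with and without Dexa.

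Other genes with large changes came from several classes. Adhfe1, an alcohol dehydrogenase of mitochondria, rose from 1.94, 1.74 and 2.51 CPM to 4.36, 3.17 and 3.16 CPM (0.79 ± 0.17, adjusted p = 0.0029), against -0.29 in siCTRL with Dexa (difference 1.08 ± 0.23, adjusted p = 0.0808). Cyp26b1, which degrades retinoic acid, rose from 7.41, 6.71 and 7.41 CPM to 10.2, 10.9 and 12.8 CPM (0.65 ± 0.09, adjusted p = 7.5e-06). Msln, mesothelin, rose from 21.3, 21.6 and 19.7 CPM to 28.5, 31.4 and 31.4 CPM (0.55 ± 0.08, adjusted p = 2.23e-05). Each of these was higher in all 3 KL001 libraries, which the ranking of the largest changes required. Cdsn, corneodesmosin, an adhesion protein of the epidermis, rose from 242, 225 and 252 CPM to 337, 335 and 338 CPM (0.49 ± 0.03, adjusted p = 6.86e-11), while the squamous marker sums overlapped. Lipg, an endothelial lipase, rose by 0.56 ± 0.12 (adjusted p = 0.00222).

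The chemokine Ccl9 (0.75 ± 0.20), the protease inhibitor Serpinb9b (0.70 ± 0.17), the tryptophan pathway enzyme Afmid (0.54 ± 0.14) and Plekhh1 (0.52 ± 0.13) were called higher at 1 to 5 CPM, with adjusted p of 0.0249, 0.0119, 0.0217 and 0.0107. Reads shared between close copies of the Serpinb9 family cannot be placed with certainty. These calls were not stable when single libraries were left out, while the log2 change stayed between 0.67 and 0.86 for Ccl9, 0.54 and 0.99 for Serpinb9b, 0.41 and 0.62 for Afmid and 0.47 and 0.58 for Plekhh1. Ccl9 lost the call without DMSO library 1 (adjusted p = 0.127) or 3 (0.0889) and without KL001 library 2 (0.0712) or 3 (0.1), and Serpinb9b without DMSO library 1 (0.0925) or 3 (0.105) and KL001 library 2 (0.134). Afmid lost it without DMSO library 1 (0.205), without KL001 library 1 (0.0674), 2 (0.0553) or 3 (0.0723), with DESeq2 (0.0867) and with no filter (0.0951), and Plekhh1 without DMSO library 1 (0.0564) or KL001 library 3 (0.0678).

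On the lower side, Erg, an ETS factor known from endothelial cells, fell from 4.94, 5.32 and 4.59 CPM to 2.11, 2.75 and 2.33 CPM (-1.04 ± 0.13, adjusted p = 2.55e-06). Summed endothelial markers were 7.24 to 8.12 CPM under DMSO and 4.30 to 5.46 CPM under KL001 with Erg, and 2.25 to 2.73 against 1.96 to 3.18 CPM without it. Cyp4f14, a fatty acid hydroxylase of a family with close copies, fell from 1.498, 1.504 and 1.37 CPM to 0.65, 0.74 and 0.56 CPM (-1.16 ± 0.21, adjusted p = 0.000552). Olfm2, a secreted olfactomedin, fell from 2.87, 3.32 and 2.82 CPM to 1.47, 1.55 and 1.58 CPM (-0.97 ± 0.19, adjusted p = 0.00108). Adamts17, a secreted protease, was called lower (-0.96 ± 0.24, adjusted p = 0.0117), but not without KL001 library 2 (0.0624) or 3 (0.0551).

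The calls in siCop1 with Dexa were set beside those of the other KL001 comparisons, which have no library in common with it. All 4 comparisons use 1 shared estimate of the spread for each gene, so their sets of calls are not independent. In siCTRL with Dexa, KL001 changed 1560 genes (10.6% of those tested), of which 514 were also called here, 513 of them in the same direction. The 514 genes are 63.7% of the 807 and 32.9% of the 1560. In siCop1 without Dexa 604 genes were called (4.09%), and 393 of them were called here (48.7% of the 807 and 65.1% of the 604), 391 in the same direction. In siCTRL without Dexa 994 genes were called (6.73%), and 390 of them were called here (48.3% and 39.2%), 386 in the same direction. A core of 266 genes was called in all 4 comparisons with 1 direction throughout, 111 higher and 155 lower.

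Cry1 and Nr1d1 belong to that core. The log2 change of Cry1 was -1.78 here, -1.74 in Dexa-treated siCTRL cells, -2.22 in siCop1 without Dexa and -1.97 in siCTRL without Dexa, and that of Nr1d1 was 0.98, 0.96, 0.75 and 0.66 in the same order. For Fmod the 4 values were -1.10, -0.89, -0.94 and -0.66. Per1 was called lower in both comparisons without Dexa (-0.20 and -0.20) and in neither with Dexa (0.01 and 0.02), and the difference between Dexa and no Dexa in siCop1 was not called (0.21 ± 0.05, adjusted p = 0.186). Of the 807 genes, 195 were called in none of the other 3 comparisons. Only 1 of these 195 had a called difference from the effect in siCTRL with Dexa. None had a called difference from the effect in siCop1 without Dexa. Being called in 1 setting alone is therefore no sign that the effects differ. Nor does an uncalled difference show equal effects, since the median standard error was 0.09 for either difference and 0.06 for the effect here.

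Whether Cop1 knockdown altered the response to KL001 was tested gene by gene, as the effect in siCop1 with Dexa minus the effect in siCTRL with Dexa. This difference was called for 10 of 14772 genes (0.0677%), 5 in each direction, and 1023 genes had an unadjusted p below 0.05. If no gene differed, a share of about 0.05 of the tested genes would still fall below that unadjusted threshold. With DESeq2 24 genes were called. Hmga2, a chromatin protein of proliferating embryonic cells, was at 658, 692 and 666 CPM under DMSO and 672, 664 and 661 CPM under KL001 in siCop1, but at 241, 251 and 258 CPM under DMSO and 290, 298 and 310 CPM under KL001 in siCTRL. It overlapped between KL001 and DMSO after Cop1 knockdown (-0.01 ± 0.03) and rose in siCTRL (0.26), a difference of -0.27 ± 0.04 (adjusted p = 0.0038). Hmga2 was also more than 2 times as high in every siCop1 library with Dexa as in any siCTRL library with Dexa.

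Grem1, a secreted antagonist of bone morphogenetic proteins, was at 99.5, 103 and 108 CPM under DMSO and 110, 109 and 105 CPM under KL001 in siCop1. In siCTRL it was at 54.5, 60.7 and 58.9 CPM under DMSO and 42.0, 45.6 and 44.9 CPM under KL001. It overlapped between KL001 and DMSO in the knocked-down cells (0.06 ± 0.05) and fell in siCTRL (-0.39), a difference of 0.46 ± 0.07 (adjusted p = 0.0038). Grem1 and Hmga2 kept their calls under every alternative, with the highest adjusted p at 0.025 and 0.0275.

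The other 8 differences were less firm. Thbd, thrombomodulin, changed by -0.12 after knockdown and by -0.57 in siCTRL (difference 0.45, adjusted p = 0.0384). Ccnd1, cyclin D1, changed by -0.01 and 0.24 (difference -0.25, adjusted p = 0.0234), and Cacna1h, a calcium channel subunit, by -0.37 and -0.09 (difference -0.29, adjusted p = 0.0384). Pdss1, an enzyme of coenzyme Q synthesis, changed by -0.41 and 0.16, Sned1, a matrix glycoprotein, by -0.14 and 0.20, Angptl7 by 0.16 and -0.27, the RNA-binding protein gene Zfp36l1 by 0.07 and -0.30 and Ccdc80 by 0.05 and -0.16. Each of the 12 libraries, when left out, ended at least 1 of the 10 calls, and between 2 and 10 genes were then called. Ccdc80 and Ccnd1 fall outside the naming rule and are given because they complete the count.

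The same test between Dexa and no Dexa within siCop1 also called 10 genes (0.0677%). The effect was higher under Dexa for 7 of them and lower for 3. An unadjusted p below 0.05 was found for 670 genes, where a share of about 0.05 is again reached if no gene differs. With DESeq2 14 genes were called. Ctgf, a matricellular protein and YAP target, was at 911, 941 and 929 CPM under DMSO and 901, 960 and 933 CPM under KL001 with Dexa. Without Dexa it was at 190, 189 and 180 CPM under DMSO and 142, 134 and 143 CPM under KL001. Its level overlapped between KL001 and DMSO with Dexa (0.01 ± 0.03) and fell with KL001 without Dexa (-0.42), a difference of 0.42 ± 0.05 (adjusted p = 5.2e-05). Its call held under every alternative, with the highest adjusted p at 0.000804.

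The other 9 did not keep their calls throughout. Gas1, a growth arrest protein of the cell surface, fell by 0.32 with Dexa and changed by 0.03 without (difference -0.35, adjusted p = 0.0157), and Tmem158 fell by 0.68 with Dexa and changed by -0.03 without (difference -0.65, adjusted p = 0.0446). Fzd4, a Wnt receptor, changed by 0.22 with and -0.23 without Dexa, Cdo1, a cysteine dioxygenase, by 0.17 and -0.24, Sned1 by -0.14 and 0.18, Adamts1 by 0.07 and -0.23, Nfil3 by 0.10 and -0.18, and Postn by -0.47 and -0.81. Every one of the 12 libraries, when left out, ended at least 3 of the 10 calls, and between 1 and 7 genes were then called. Adamts1, Nfil3 and Postn fall outside the naming rule and were chosen after their values were seen.

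**Figure D5:**
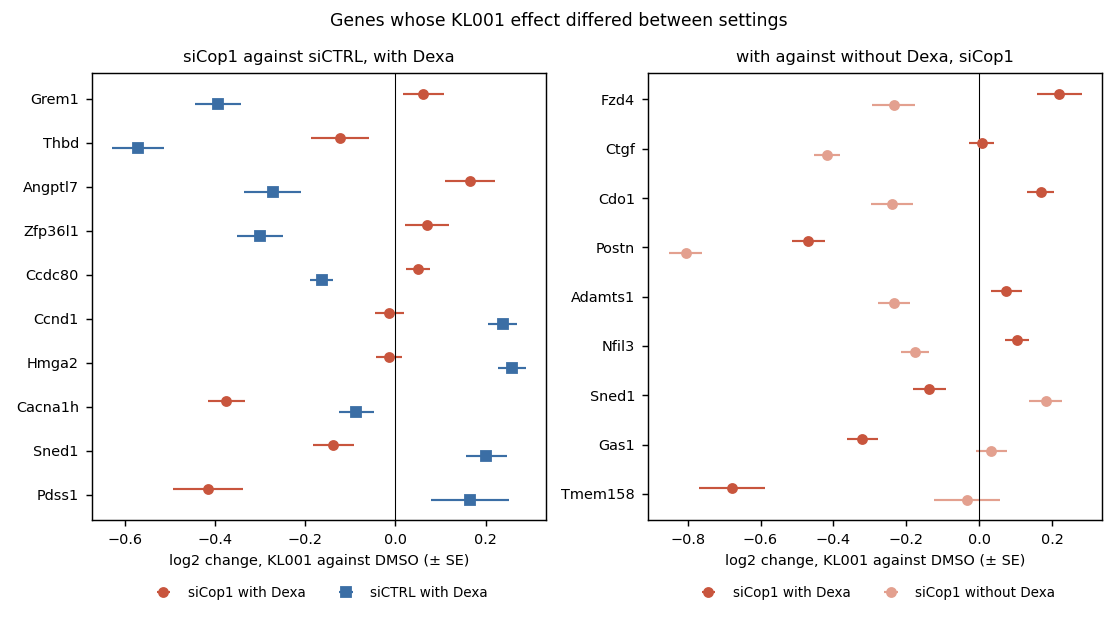
KL001 effects of genes with a called difference between settings, 10 on the left and 9 of 10 on the right. The left panel sets siCop1 (circles) against siCTRL (squares), both with Dexa, and the right panel sets siCop1 with Dexa (dark) against siCop1 without Dexa (light); the x axis is the log2 change of KL001 against DMSO and error bars are standard errors. Hmga2 and Ccnd1 sit at 0 in siCop1 and above 0 in siCTRL, and Ctgf sits at 0 with Dexa and below 0 without.

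Genes of DNA replication and mitosis gave a contrast without a call. None of 22 listed genes was called in siCop1 with Dexa (median 0.05), and none in siCop1 without Dexa (median 0.00). In siCTRL 14 were called with Dexa (median 0.17) and 10 without (median 0.16). The effect was smaller in siCop1 than in siCTRL with Dexa in 21 of the 22 genes, and none of these differences was called one gene at a time.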

How the data were processed

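Polyadenylated RNA was sequenced as single reads from strand-marking libraries, per the labels' protocols. The authors deposited 1 table of raw read counts per gene, with 1 column a library. The submitters' processing notes name bcl2fastq 1.8.4, STAR 2.4.5a, featureCounts, Subread 1.4.6-p3, DESeq2, Picard 1.126 and the mouse build GRCm38, with no role or order. Not given in the sources used here were the annotation, the strand setting and the handling of reads shared between near-identical genes. Genes with close copies (among those named, Serpinb9b, Cyp4f14, Ccl9, Ifit2 and Hsp90ab1) are therefore uncertain.

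Counts were analysed in R 4.3.3 with edgeR 4.0.16 and limma 3.58.1. Of 47480 genes listed, 28837 had at least 1 count, and 14772 passed the filter (filterByExpr with the 8 groups given, a minimum count of 10 and a total of at least 15). Libraries were scaled by TMM. A quasi-likelihood model with 1 mean per group was fitted to all 24 libraries (3 a group), which share 1 estimate of the spread, with a common biological coefficient of variation of 3.71%. Tests are two-sided, with Benjamini-Hochberg adjustment over all tested genes and a threshold of 0.05. Values written after ± are standard errors of log2 changes unless marked otherwise. Library totals over the 24 libraries ran from 21409988 to 27875023 counts. Within the 2 groups compared, no pair of replicates held identical values.

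Genes named are members of the gene lists, in each direction the 10 genes that changed most and the 5 with the smallest p, among genes that were called, reached a mean of 1 CPM and did not overlap between the groups, and the 4 largest called differences of each sign between settings. Outside the lists, symbols of the Gm, Rik, -ps and clone forms were skipped. The members and the 36 lists were chosen with earlier results of these data known. The alternatives were RLE scaling, no filter, a replicate block, a model of the compared groups alone, DESeq2 1.42.0, a test against a 1.5-fold change, each library left out in turn and, chosen after seeing the data, offsets that remove a transcript length and GC trend (GENCODE vM21 lengths, 96.8% of tested genes matched) and the list counts under each of these. Statements that a single call or a list count held leave out the 1.5-fold test, which was counted over all genes only. The fits were tested on simulated data. Promoter sequences are from RefSeq on GRCm38.p6, matched by symbol. Some genes of the lists and differences enter the counts but are not reported here by name.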

Additional observations from a re-analysis of the deposited data

Results flagged for a closer look

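For 10 genes the effect of KL001 with Dexa differed between siCop1 and siCTRL by a test of the difference itself. On the log2 scale and as the siCop1 effect minus the siCTRL effect, the difference was above 0 for Grem1 (0.46), Thbd (0.45), Angptl7 (0.44), Zfp36l1 (0.37) and Ccdc80 (0.21). It was below 0 for Pdss1 (-0.58), Sned1 (-0.34), Cacna1h (-0.29), Hmga2 (-0.27) and Ccnd1 (-0.25). KL001 lowered Grem1 in siCTRL and raised Hmga2 there, and neither was called after Cop1 knockdown.

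For 9 genes given here, Sned1 again among them, the effect of KL001 in siCop1 differed between Dexa and no Dexa by the same kind of test. As the effect with Dexa minus the effect without, the difference was above 0 for Fzd4 (0.45), Ctgf (0.42), Cdo1 (0.41), Postn (0.34), Adamts1 (0.31) and Nfil3 (0.28). It was below 0 for Tmem158 (-0.65), Gas1 (-0.35) and Sned1 (-0.32). Postn fell under KL001 in both settings, by more without Dexa.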

How the results depend on the processing

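The 807 calls in siCop1 with Dexa became 1435 in a fit on only the groups compared, 4 in a test against a 1.5-fold change and 502 to 611 when 1 of the 6 libraries was left out. RLE scaling, no filter, DESeq2 and removal of the length and GC trend gave 815, 860, 735 and 948. In the same order, 792, 654, 698 and 710 of the 807 genes were called again. With tested genes split into 4 groups by GC content, the median log2 change was 0.019 in the lowest and -0.028 in the highest. These groups held 142 and 271 called genes. The 10 differences between siCop1 and siCTRL with Dexa became 59 with no filter, 24 with DESeq2, 30 with the trend removed and 2 to 10 with 1 of 12 libraries left out. The 10 differences between Dexa and no Dexa in siCop1 became 5 with RLE scaling, 43 with no filter, 24 in the fit on only the groups compared and 1 to 7 with a library left out. The cause of these shifts was not tested. The labels do not say what a replicate number marks, and the correlations of deviations between same-numbered libraries were 0.11, 0.03 and 0.11, so the numbers were not taken as a pairing. As a hint from the data, 6 of 6 libraries correlated best with their own number. With the replicate block the 3 counts were 796, 5 and 5, and the differences no longer called were those of Thbd, Zfp36l1, Cacna1h, Pdss1 and Sned1 between siCop1 and siCTRL and those of Fzd4, Postn, Adamts1, Tmem158 and Sned1 between Dexa and no Dexa. Nfil3, Hlf, Ddb1 and Por, not called for KL001 against DMSO, passed the threshold in a fit on only the groups compared (adjusted p of 0.0265, 0.0356, 0.0165 and 0.0464). Nfil3 also passed with RLE scaling (0.0497) and with the trend removed (0.0123), and Por with the trend removed (0.0394) and without DMSO library 2 (0.0469). No followed gene that was called, either in the main model or in the alternative, changed direction between them. Some genes that were not called, such as Per1, Clock and Arntl2, changed sign when a library was left out. Of 159 followed gene calls, 98 held in every alternative other than the 1.5-fold test, and 61 were lost in at least 1. The median standard error of a log2 change was 0.06, which describes the precision at this depth and is no detection limit.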

Other observations

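Of 12 genes of the insulin-like growth factor axis, 3 were called lower and none higher (25%, against 2.97% of all genes called lower), and 9 were not called. One of the 3, Igfbp3 (-0.59, adjusted p = 0.0119), lost the call without DMSO library 1 (0.0833) or 2 (0.0586) and without KL001 library 3 (0.0803). Igf1, the secreted growth factor, fell from 13.2, 13.5 and 14.1 CPM to 9.19, 9.33 and 9.39 CPM (log2 change -0.54 ± 0.08, adjusted p = 5.33e-05). Igfbp7, a secreted binding protein, fell by 0.24 on the log2 scale (adjusted p = 0.00308). Of 19 tested genes of TGF-beta and BMP signalling, 4 fell and 1 rose (26.3% called, against 5.46% of all genes). Tgfb3, a ligand, fell from 85.8, 81.6 and 82.1 CPM to 70.6, 66.5 and 67.6 CPM (-0.29 ± 0.04, adjusted p = 3.96e-06), and Tgfbi, a secreted matrix protein, fell by 0.38 on the log2 scale (adjusted p = 4.65e-07). The lower count was 2 without any 1 of the 3 DMSO libraries and without KL001 library 1 or 3. Of 16 contractile and SRF target genes, 3 fell and 1 rose (25% called). The gene that rose was Cyr61 (0.11, adjusted p = 0.0417), whose call was lost without any 1 DMSO library and without KL001 library 2 or 3 (adjusted p from 0.0567 to 0.206). Thbs1, thrombospondin, fell from 1829, 1804 and 1817 CPM to 1423, 1363 and 1436 CPM (-0.37 ± 0.07, adjusted p = 0.00286).

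Among 12 listed NRF2 targets 3 were called (25%, against 5.46% of all genes), all higher, and the median change was 0.03. Slc7a11, the cystine transporter, rose from 29.0, 28.6 and 28.4 CPM to 38.8, 38.1 and 44.1 CPM (0.49 ± 0.08, adjusted p = 0.00033), and Gclc, which starts glutathione synthesis, rose by 0.19 ± 0.04 (adjusted p = 0.00194). Interferon-stimulated genes gave 1 call among 16 tested, a share of 6.25% that is near the 5.46% of all genes. The gene called was Ifit2 (0.24 ± 0.05, adjusted p = 0.00393). Of 14 tested cytokines and chemokines 3 were called higher and 1 lower (28.6% called). The higher count was 1 without DMSO library 1, 0 without DMSO library 3 and 1 without KL001 library 2. Immediate early genes gave 1 call in each direction among 12 (16.7% called), and the lower one was lost without any 1 DMSO library and without KL001 library 2 or 3. The p53 targets gave 2 higher among 15 (13.3% called), a count of 1 without DMSO library 1 or 3 and without any 1 KL001 library. Retinoic acid genes gave 1 in each direction among 11 (18.2% called), and the lower one was lost without KL001 library 3. Aryl hydrocarbon receptor targets gave 2 higher among 8 (25% called), and both lost the call without DMSO library 1 or 3 and without KL001 library 1. Of 10 tested genes of the glucocorticoid receptor and its chaperones only Hsp90ab1 was called, a share of 10% (0.09 ± 0.02, adjusted p = 0.00477, or 0.0647 with no filter). Of 4 tested gluconeogenesis genes only Pck2 was called, a share of 25% (0.18 ± 0.03, adjusted p = 0.000611). These values are given as measurements, with no explanation tested.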
